A study of Mus musculus with 15 samples.

Results

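Myc binding was mapped by chromatin immunoprecipitation with sequencing (ChIP-seq) at 10, 20 and 30 min after Myc activation, and the 3 peak lists were compared with one another. Peaks that shared at least 1 bp were merged, which gave 27323 regions. A separate merge of all 6 Myc lists of the study gave 29372 regions. Each region was then sorted by which of the 3 lists had contributed a peak to it, using positions only. Of the 27323 regions, 20598 were called at all 3 times (75.4%), 3119 at any 2 times (11.4%) and 3606 at any 1 time (13.2%). The single-time regions comprised 966 called at 10 min only, 2046 at 20 min only and 594 at 30 min only.

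All libraries used here came from 3T9 fibroblasts, an immortalized line from mouse embryos at E13.5 with the genotype c-mycflox/flox, floxed alleles of c-myc, that had been infected in culture with MycER from a pBabe construct. MycER is a fusion of Myc to a modified hormone-binding domain of the estrogen receptor and is held inactive until 4-hydroxytamoxifen (OHT) is added, here at 400 nM. The Myc antibody N262 was used at every time, and the peak lists do not separate endogenous Myc from MycER. The untreated group (0 min) and the groups at 2 h and 4 h carried the same alleles and construct, and RNA polymerase II (RNAPII) was mapped in the same cells with antibody N20. They serve here only to place the early regions. The study holds 15 samples with 1 library per group. Differences between times rest on single libraries, have no replicate check and carry no p-value.

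Myc binds DNA as a dimer with Max, and its preferred site is the E-box CACGTG, with CACGCG as a common variant. In cells with abundant Myc, most promoters that already carry RNAPII are also occupied by Myc, and distal sites are occupied at accessible enhancers. In fibroblasts such enhancers often carry the AP-1 site TGACTCA, which is bound by Fos and Jun family proteins.

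Sequences of 61 bases around a motif are shown to set single-time sites beside sites called at all 3 times. The first set holds E-boxes away from promoters, from the region with the highest fold enrichment among those of its class that hold the motif outside exons, with the E-box nearest to the summit in capitals and any further copy in lower case. All sequences are the plus strand of mm9, 5′ to 3′, with no annotated exon in the stretch. The 10 min only site lay at chr7:52213791-52213851, in intergenic DNA 15171 bp from the transcription start site (TSS) of Tsks. The 20 min only site lay at chr1:136987760-136987820 in an intron of Lgr6, and the 30 min only site at chr8:122198082-122198142 in an intron of Wfdc1. The site called at all 3 times lay at chr13:55291764-55291824, in intergenic DNA 19329 bp from the TSS of Nsd1.
10 min only, Tsks: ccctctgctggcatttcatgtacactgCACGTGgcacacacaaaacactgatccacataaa
20 min only, Lgr6: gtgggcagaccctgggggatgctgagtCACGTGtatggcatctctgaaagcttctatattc
30 min only, Wfdc1: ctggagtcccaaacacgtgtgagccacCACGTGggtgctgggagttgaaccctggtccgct
all 3 times, Nsd1: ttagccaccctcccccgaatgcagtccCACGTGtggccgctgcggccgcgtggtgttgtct

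Fold enrichment, the deposited ratio of ChIP tags to the local control background, was 10.77 at the Tsks site, 12.66 at the Lgr6 site, 11.92 at the Wfdc1 site and 135.2 at the Nsd1 site in the 20 min list, with the others each in their own list. The Lgr6 E-box overlaps a match to the AP-1 site on the other strand, an arrangement found in 6 of the 3606 single-time regions and in 36 of the 20598 regions called at all 3 times. The second set shows AP-1 sites in capitals, chosen by the same rule and again away from promoters. The 10 min only site lay at chr6:120877938-120877998 between genes near Bid. The 30 min only site lay at chr6:118789788-118789848 in an intron of Cacna1c. The site called at all 3 times lay at chr17:71491633-71491693 in an intron of Lpin2.
10 min only, Bid: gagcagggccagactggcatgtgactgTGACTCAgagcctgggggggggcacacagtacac
30 min only, Cacna1c: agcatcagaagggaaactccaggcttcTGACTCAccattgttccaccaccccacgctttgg
all 3 times, Lpin2: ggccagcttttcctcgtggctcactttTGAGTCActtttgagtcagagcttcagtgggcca

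The third set, chosen after the values were seen, holds E-boxes at promoters of protein-coding genes, with the E-box nearest to the summit in capitals. The single-time and 2-time examples follow the same rule, while Ncl is shown as a known Myc target and is not the highest of its class. The Igfbp2 stretch (chr1:72871593-72871653) was called at 20 min only, with a fold enrichment of 9.33 and 76 tags. The Slc25a41 stretch (chr17:57180463-57180523) was called at 30 min only, with a fold enrichment of 7.67 and 37 tags. The Cdk5r1 stretch (chr11:80290107-80290167) was called at 20 and 30 min, and the Ncl stretch (chr1:88255333-88255393) at all 3 times.
20 min only, Igfbp2: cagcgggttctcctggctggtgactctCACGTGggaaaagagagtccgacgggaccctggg
30 min only, Slc25a41: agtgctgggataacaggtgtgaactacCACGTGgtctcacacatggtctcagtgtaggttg
20 and 30 min, Cdk5r1: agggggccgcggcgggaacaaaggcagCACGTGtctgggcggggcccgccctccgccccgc
all 3 times, Ncl: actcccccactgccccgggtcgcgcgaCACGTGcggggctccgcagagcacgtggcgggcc

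Igfbp2 encodes an insulin-like growth factor binding protein and Cdk5r1 the p35 activator of the kinase Cdk5. Ncl encodes nucleolin, an abundant nucleolar protein, and its intronic E-box is a textbook Myc site. The regions were picked for holding the motif, so the sequences illustrate the sites and say nothing of how often it occurs, which the motif shares give.

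The length of each list did not follow sequencing depth. The 10 min library held 28131340 tags after filtering and gave 24066 peaks. The 20 min library held 30932510 tags and gave 25702 peaks. The 30 min library was the deepest, with 33328832 tags, and gave the fewest peaks, 22996. At the weakest end of each list, between a score of 80 and 90, the median peak held 1.71 RPM at 10 min, 1.63 at 20 min and 1.52 at 30 min, where RPM is tags per 1000000 tags of the library. The share of tags that fell inside peaks was 14.7% at 10 min, 16.3% at 20 min and 12.7% at 30 min, the same order as the number of peaks and of single-time regions. Whether that share reflects the immunoprecipitation, the sequencing or occupancy was not tested. Each list is a call of MACS on 1 library, and its score is −10 times log10 p. Score and fold enrichment are the authors' values, and each depends on its own library and control. Values of different times set side by side are descriptions, and no change between times is read from them.

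The excess of single-time regions at 20 min differed between settings. With only peaks of a score of at least 100 kept, 729 regions were called at 10 min only, 1920 at 20 min only and 501 at 30 min only. When only the 22996 highest-scoring peaks of each list were used, 1029 regions were called at 10 min only, 975 at 20 min only and 1061 at 30 min only. The largest class became the smallest, and the 3 counts differed by less than 100. This setting left the 30 min list whole and removed only the lowest-scoring peaks of the 10 and 20 min lists. The near-equal counts are therefore in part built into it. Regions called at all 3 times numbered 19868 under this setting, against 20598 with the whole lists. Among regions called at 2 times, the 10 and 20 min pair fell from 1834 to 1091 and the 10 and 30 min pair went from 320 to 689, while the 20 and 30 min pair went from 965 to 863.

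**Figure D1:**
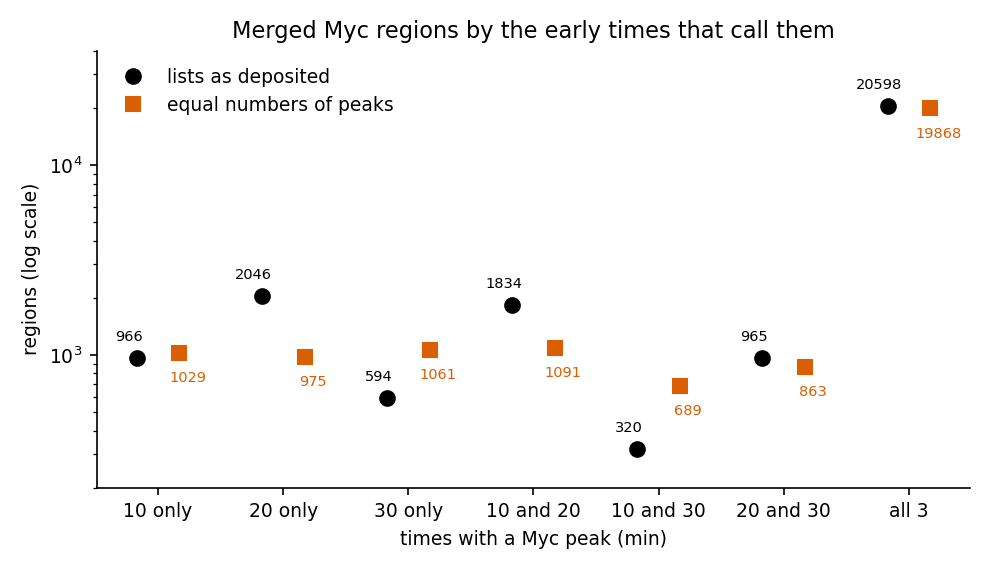
Number of merged Myc regions (log axis) for each combination of the 3 early times, from the deposited lists (circles) and from the 22996 highest-scoring peaks of each list (squares). With equal numbers of peaks the single-time classes lie between 975 and 1061, against 594 to 2046 with the deposited lists.

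Single-time regions came from the weak end of each list. Among the lowest-scoring 10% of the 20 min list, 46.7% of peaks (1200 of 2570) lay in single-time regions. The share was 27.1% (652 of 2406) at the same end of the 10 min list and 16.96% (390 of 2299) in the 30 min list. Above the median score of each list, 0 of 12033, 0 of 12851 and 0 of 11498 peaks did, which allows a share of up to 0.0334% in the 30 min list at the upper Wilson 95% bound. All intervals given here are Wilson 95% intervals and cover counting error only.

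**Figure D2:**
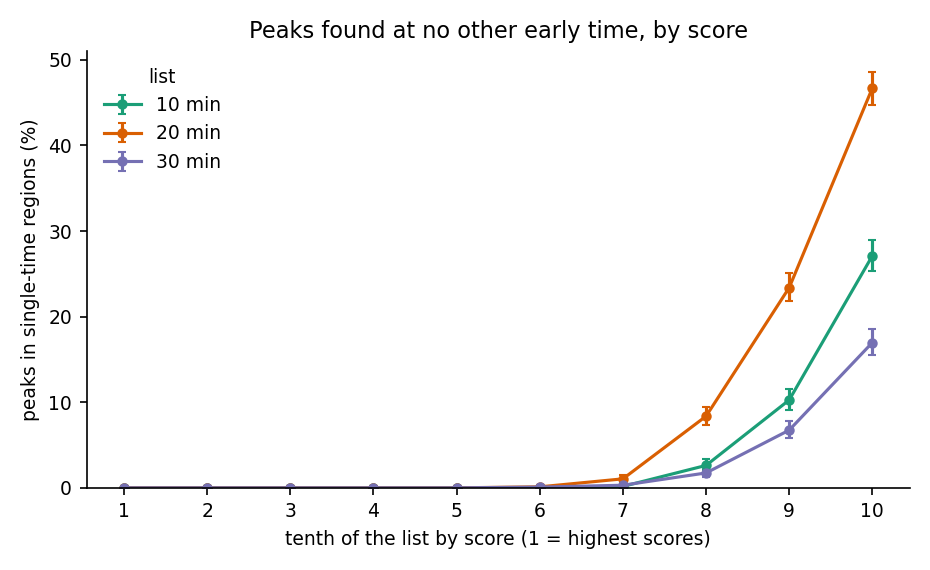
Percent of peaks that lie in regions called at no other early time, in bins of 10% of each list ranked by score from high to low, with Wilson 95% intervals. The share is 0 in the first 5 bins of every list and reaches 27.1% at 10 min, 46.7% at 20 min and 16.96% at 30 min in the last.

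With each region given the score of its best peak in any early list, the median was 99.0 for single-time regions, 137 for regions of 2 times and 613 for regions of all 3 times, where the cutoff of the lists is 80. A score below 100 was held by 52.0% of single-time regions and by 0.214% of regions called at all 3 times. Regions of several times had more peaks to take the best from, so part of this order is built into the measure. Only 187 single-time regions (5.19%) reached a score of 160. At this stricter level, with absence judged on the whole lists, 27 regions remained at 10 min only, 135 at 20 min only and 25 at 30 min only. Single-time regions held 0.189% of the library's tags at 10 min, 0.394% at 20 min and 0.101% at 30 min. Regions of all 3 times held 14.0%, 15.3% and 12.3%. The single-time peaks covered only 1.27, 2.68 and 0.709 Mb, against 42.9, 43.5 and 39.6 Mb for peaks of all 3 times. The tag shares thus also follow the length covered. Absence from a list means that no peak passed the cutoff there, and the tags of that library at the site were not analysed here.

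Where all 3 lists placed 1 peak in a region, the summits lay close together. Over 19872 such regions the median distance between summits was 34 bp for 10 against 20 min, 37 bp for 10 against 30 min and 35 bp for 20 against 30 min. Within 100 bp lay 83.5%, 82.0% and 82.6% of the pairs, respectively. Single-time regions share no base with a peak of another early list by definition. A gap of at most 1000 bp to such a peak was found for 10.5% of them (95% interval 9.55 to 11.6). Nudt1, which encodes a hydrolase of oxidized purine nucleotides, had such a neighbour. Its 10 min peak lay 158 bp from a peak of another early list, and the gene had a promoter peak at all 3 times.

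Single-time regions lay mostly away from promoters. A promoter was the 1000 bp either side of any annotated TSS, and 12.3% of single-time regions (443 of 3606, 95% interval 11.3 to 13.4) had their summit in one. The share was 15.9% (14.7 to 17.3) for regions of 2 times and 45.2% (44.6 to 45.9) for regions of all 3 times. Among single-time regions it was 8.90% at 10 min, 13.0% at 20 min and 15.3% at 30 min. The 10 min interval (7.27 to 10.9) did not overlap that of 20 min (11.6 to 14.5) or 30 min (12.6 to 18.4), and those of 20 and 30 min overlapped. With equal numbers of peaks the shares were 8.75%, 14.1% and 14.3%. The 10 min only regions were also the farthest from genes, with a median of 15293 bp from summit to TSS, against 13167 bp at 20 min only, 11099 bp at 30 min only and 2439 bp for all 3 times.

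Introns and intergenic DNA held most single-time summits. At 10 min only, 42.9% were intronic and 45.4% intergenic. At 20 min only the shares were 41.0% and 43.8%. At 30 min only they were 48.1% and 34.7%, and the upper bound of the intergenic share, 38.6%, lay below the intervals of 10 min only (42.3 to 48.6) and 20 min only (41.7 to 45.9). Coding exons outside promoters held 0.725%, 0.342% and 0.842% of summits, and 3′ untranslated regions 1.55%, 1.32% and 0.673%. In regions of all 3 times, intron and intergenic DNA each held 26.5%.

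**Figure D3:**
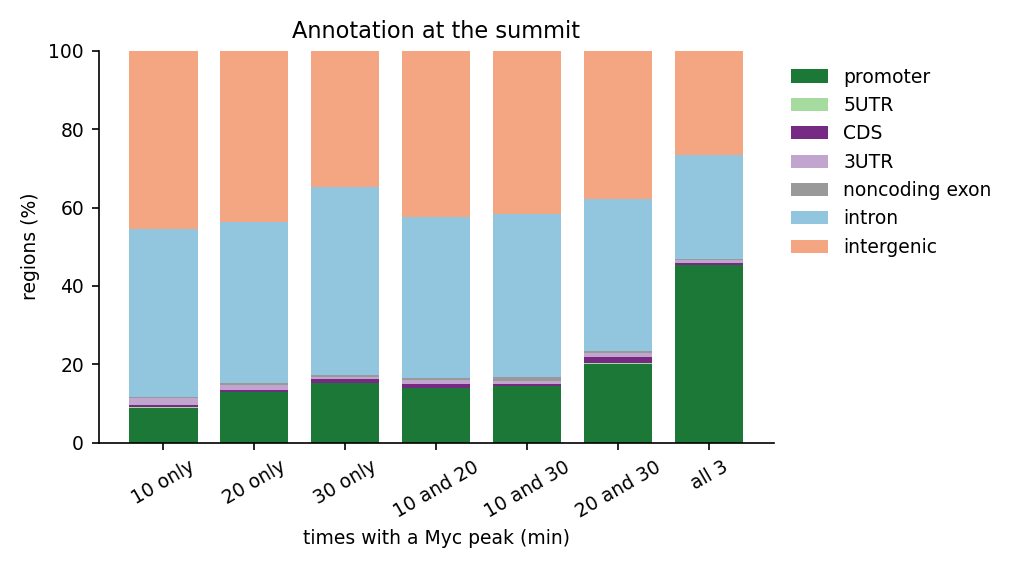
Percent of merged regions by the annotation at the summit (stacked, adding to 100%), for each combination of early times. Promoters hold 8.90% to 15.3% of single-time regions and 45.2% of regions called at all 3 times.

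The E-box CACGTG was less frequent at single-time summits than at summits called at all 3 times. It occurred within the 200 bp around the summit, on both strands by its symmetry, in 7.96% of single-time regions (7.12 to 8.89), 8.46% of regions of 2 times (7.54 to 9.49) and 15.3% of regions of all 3 times (14.8 to 15.8). Windows of equal length 1000 bp to either side held it in 2.30%, 2.68% and 2.61%, and the windows around all annotated TSSs in 4.52%. The single-time share was thus above its own flanks at each time, at 6.63% at 10 min only, 7.58% at 20 min only and 11.4% at 30 min only, with flanks of 1.92%, 2.35% and 2.78%. The 30 min only interval (9.13 to 14.3) lay above those of 10 min only (5.22 to 8.37) and 20 min only (6.51 to 8.80). The order was the same with equal numbers of peaks, at 6.03%, 6.56% and 11.97%. The fragment length estimated by the caller moved with it, at 275 bp at 10 min, 262 bp at 20 min and 243 bp at 30 min, and its part in the motif share was not tested.

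The higher E-box share at 30 min only was seen away from promoters. There the E-box share was 12.1% at 30 min only (9.56 to 15.3), 6.48% at 10 min only and 7.64% at 20 min only, against 13.7% for all 3 times. At promoters the shares at 10, 20 and 30 min only were 8.14% (7 of 86), 7.14% (19 of 266) and 7.69% (7 of 91), with intervals that overlapped. The promoter share for all 3 times was 17.2%. The 30 min only interval at promoters (3.78 to 15.0) also held the 12.1% found away from promoters. These counts are too small to tell whether the single times differ at promoters. The variant CACGCG, searched on both strands, was found at 2.17%, 2.35% and 3.03% of single-time regions and at 12.4% of regions of all 3 times. The respective flanks held it in 0.776% and 1.45%. Away from promoters it was found at 1.68% of single-time regions and 3.93% of regions of all 3 times. At promoters the shares were 7.67% (5.54 to 10.5) and 22.6%, and windows around all annotated TSSs held it in 7.22%.

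The AP-1 site TGACTCA, searched on both strands, went the other way. It was found at 27.9% of single-time regions (26.5 to 29.4), 28.3% of regions of 2 times and 19.8% of regions of all 3 times (19.2 to 20.3), with 3.30%, 3.67% and 3.59% in flanks. Away from promoters the shares were closer, with 949 of 3163 single-time regions (interval 28.4% to 31.6%), 32.4% of regions of 2 times and 32.4% of regions of all 3 times. At promoters single-time regions held it in 13.1% (10.3 to 16.6) and regions of all 3 times in 4.40% (4.00 to 4.84). A motif match describes the letters of the window and does not show which protein was bound.

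Many single-time regions were called again later. The 2 h list held a peak at 51.6% of 10 min only regions (48.4 to 54.7), 60.6% of 20 min only regions (58.5 to 62.7) and 58.8% of 30 min only regions (54.8 to 62.6). The 4 h list held one at 25.7%, 25.9% and 35.2%. The 0 min list held one at 10.9%, 11.6% and 6.90%. For regions of all 3 times these shares were 99.5% at 2 h, 96.9% at 4 h and 87.9% at 0 min. The 2 h list is the longest of the 6, with 27388 peaks, and the 0 min list the shortest, with 19995. No Myc list outside the early times held 33.6% of single-time regions (1210 of 3606), 8.05% of regions of 2 times and 0.170% of regions of all 3 times.

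RNAPII peaks of untreated cells lay at 13.6% of single-time regions, 18.5% of regions of 2 times and 57.2% of regions of all 3 times. Restricted to promoters, the shares were 43.6% (39.0 to 48.2), 58.4% and 92.2%. RNAPII of the matching time was found at 11.3% of 10 min only, 20.1% of 20 min only and 12.1% of 30 min only regions. The RNAPII library of 20 min held 36394988 tags, against 19999071 at 10 min and 16274406 at 30 min. Its list also met more of the regions of all 3 times, 62.0% against 58.4% and 57.0%. The part of RNAPII depth in the 20 min value was not tested.

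**Figure D4:**
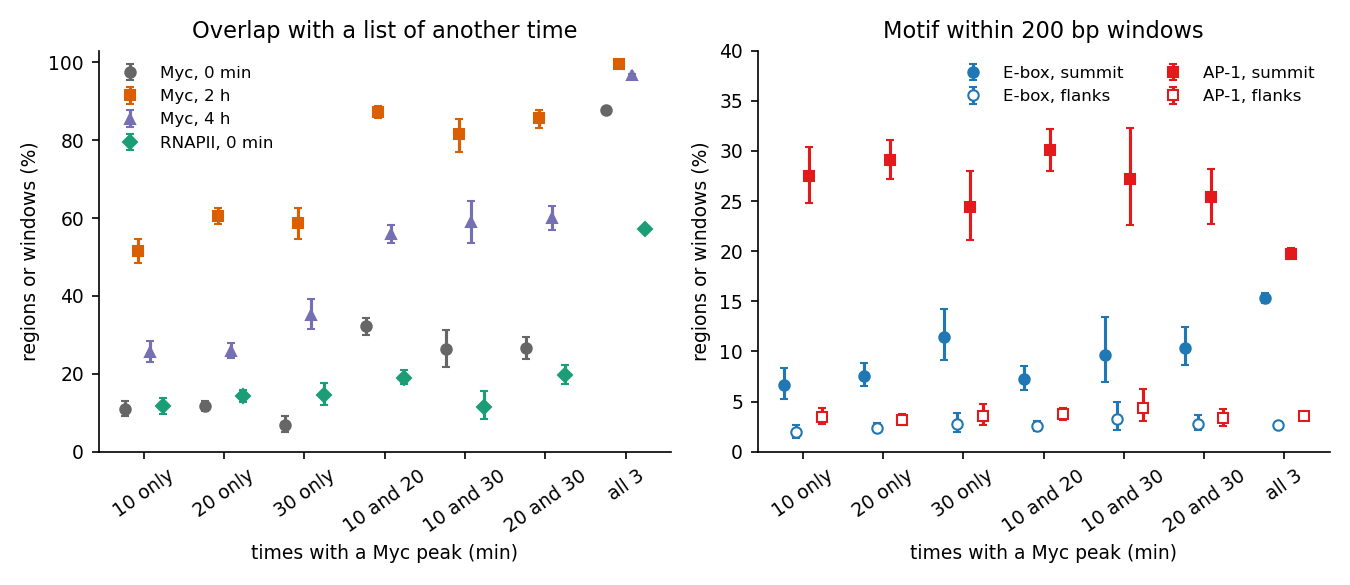
Left, percent of merged regions that share at least 1 bp with a Myc peak of 0 min, 2 h or 4 h or an RNAPII peak of 0 min. Right, percent of 200 bp windows at summits (filled) and 1000 bp away (open) with an E-box or an AP-1 site. Bars are Wilson 95% intervals. Overlap with 2 h is 51.6% to 60.6% for single-time regions and 99.5% for all 3 times, and the E-box share of 30 min only, 11.4%, is the highest of the single-time classes.

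Genes were counted by a Myc peak reaching the 1000 bp either side of a protein-coding TSS, over 22219 gene symbols. At all 3 times 10095 genes had such a promoter peak (45.4%), at any 2 times 403 (1.81%) and at any 1 time 299 (1.35%). Of the latter, 63 had it at 10 min only (0.284%), 184 at 20 min only (0.828%) and 52 at 30 min only (0.234%). Among the 299 genes, 67.9% (62.4 to 72.9) had a Myc promoter peak at 2 h, 28.4% at 4 h and 16.7% at 0 min, and 47.5% had RNAPII at 0 min. Genes bound at all 3 times had RNAPII at 0 min in 94.9% of cases. Away from promoters, the nearest protein-coding gene of a single-time region had a Myc promoter peak at all 3 times in 62.4% of regions, against 67.8% for regions of all 3 times.

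The strongest promoter regions called at 10 min only were those of Cited1, Gm2382, Cnga1, Nudt1, Tmod2 and Taf7. Cited1 encodes a coregulator that binds CBP and p300, and its region (chrX:99447039-99447946) had 39 tags, a score of 116.61 and a fold enrichment of 9.67. No other Myc list of the study had a peak there. Taf7 encodes a subunit of the general transcription factor TFIID, and its 10 min peak held 42 tags with a fold enrichment of 8.38. It too was called in no other Myc list, although the promoter carried RNAPII before activation. Cnga1, a channel subunit of rod photoreceptors, had 42 tags at 10 min and peaks at 2 h and 4 h with 63 and 48 tags. Tmod2, which encodes a tropomodulin that caps actin filaments in neurons, had 41 tags at 10 min and 52 at 2 h. All 6 lay between fold enrichments of 8.38 and 9.67 in a list that reached 135.03, and all but Nudt1 had no promoter peak at 20 or 30 min.

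Away from promoters the highest 10 min only regions were in introns of Rgnef and Tspan14 and in intergenic DNA nearest to Gm6055 and Smg1. The intergenic summits lay 134981 bp from the TSS of Gm6055 and 61385 bp from that of Smg1. The Rgnef region had 66 tags at 10 min with a fold enrichment of 12.03. The same region was called at 0 min with 82 tags, at 2 h with 84 and at 4 h with 58, so the gap in the calls covered only 20 and 30 min. The region near Smg1, a kinase of nonsense-mediated decay, was likewise called at 0 min, 2 h and 4 h, with 33, 50 and 44 tags. The Tspan14 region had 67 tags at 10 min, no peak at 0 min, and peaks of 63 and 52 tags at 2 h and 4 h.

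The strongest promoter regions called at 20 min only were those of Cxadr, Grin2d, Snx29, Dram1, Zfp629 and Rnaset2a. Cxadr encodes an adhesion protein of cell junctions, and its region (chr16:78301766-78303639) had 92 tags, a score of 286.61 and a fold enrichment of 12.94. Its tags were 44 at 0 min, 89 at 2 h and 56 at 4 h. Zfp629, a zinc finger gene, had 85 tags at 20 min, 36 at 0 min, 94 at 2 h and 35 at 4 h. Both regions were thus called on either side of the early series and missed at 10 and 30 min. Grin2d encodes a subunit of the NMDA glutamate receptor and had 51 tags at 20 min and 46 at 2 h, with a summit in coding sequence. Dram1, a regulator of autophagy induced by p53, had 50 tags at 20 min, 56 at 2 h and 41 at 4 h. All 6 regions were called at 2 h. By gene, Dram1 had a promoter peak at all 3 times through peaks outside this region.

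Among the highest 20 min only regions away from promoters, the one near Pou4f1, a transcription factor gene of sensory neurons, had 60 tags and a fold enrichment of 14.33. An intronic region of Fer, which encodes a tyrosine kinase, had 93 tags at 20 min, 96 at 2 h and 83 at 4 h. A region on the X chromosome within Rpgr and Srpx had 98 tags at 20 min and 61 at 2 h. The intergenic region near Asgr2, a receptor gene of hepatocytes, had 68 tags at 20 min, 58 at 2 h and 56 at 4 h. The Fer, Rpgr and Asgr2 regions had no peak at 0 min.

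At 30 min only, the strongest promoter regions were those of Zfp362, Shank1, Trim7, Fam160b2, Snx29 and Ugt1a6a. Zfp362, a zinc finger gene, had 49 tags and a score of 122.31, and Ugt1a6a, which encodes a glucuronosyltransferase, had 40 tags and a score of 98.07. Neither region was called in any other Myc list. Shank1, which encodes a scaffold of excitatory synapses, had 41 tags at 30 min, 42 at 2 h and 41 at 4 h. Snx29, a sorting nexin gene, appeared at 20 min only and at 30 min only with different promoters. The one at chr16:11419974-11421260 was called at 20 min only and the one at chr16:11322312-11323561 at 30 min only, so the gene itself counts as bound at 2 times. By gene, Zfp362 also had a promoter peak at 20 min and Trim7 had one at all 3 times, through peaks outside these regions. None of the 6 regions was called at 0 min.

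Away from promoters the leading 30 min only region lay in an intron of Mns1, a gene named for its product in meiotic nuclei, at chr9:72301607-72303003. It had 104 tags, a score of 348.46 and a fold enrichment of 14.48, the highest fold of the 30 min only regions. The same region had no peak at 0 min, 79 tags at 2 h and 124 tags at 4 h. The region in Wfdc1 had 57 tags at 30 min, 52 at 2 h and 54 at 4 h. An intergenic region had 37 tags at 30 min and 35 at 2 h. Its nearest protein-coding gene was Pxmp3, a peroxisome assembly gene with its TSS 374190 bp away.

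Ranked by score instead of fold, a ranking chosen after the values were seen, the highest 20 min only region was a peak near Parp16 at chr9:65048074-65050303, at the start of an annotated transcript 12641 bp from the nearest protein-coding TSS. It had 119 tags and a score of 358.19, and the 0 min list called it with 60 tags. Another high 20 min region, at a promoter of Litaf, had 256 tags with a fold enrichment of 8.05 and was called in no other Myc list. Litaf encodes a regulator of endosomal sorting. Its peak lay 1385 bp from a peak of another early list.

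Regions called at 2 times were intermediate in strength and lay close to single-time regions in position. Their median distance from summit to TSS was 13268 bp, against 13675.5 bp for single-time regions and 2439 bp for all 3 times. The leading promoters called at 10 and 20 min were Tbc1d10b, Kcnd1 and Il13ra2. Tbc1d10b encodes a Rab GTPase-activating protein and had 100 tags at 10 min and 68 at 20 min, and Kcnd1, a potassium channel gene, had 52 and 60. The Kcnd1 promoter carried an E-box. Those called at 10 and 30 min were Capn5, Lpin1 and Sall2. Lpin1, which encodes a phosphatidate phosphatase, had 38 tags at 10 min and 37 at 30 min. Those called at 20 and 30 min were Mta1, Clmn and Tspan9. Mta1, a subunit of the NuRD chromatin complex, had 51 tags at 20 min and 46 at 30 min, and Tspan9 had 66 and 68. All 9 regions were called at both 2 h and 4 h. By gene, Capn5, Mta1 and Tspan9 had a promoter peak at all 3 times through peaks outside these regions. The share of 2-time regions at promoters was 14.0% for 10 and 20 min, 14.4% for 10 and 30 min and 20.1% (17.7 to 22.7) for 20 and 30 min.

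A small set of 2-time regions was singled out after the values were seen, as those whose highest-scoring peak had a fold enrichment above 18. There were 6, of which 5 were called at 20 and 30 min, 1 at 10 and 20 min and 0 at 10 and 30 min. The strongest lay in intergenic DNA 5334 bp from the TSS of Epb4.2, an erythrocyte membrane protein gene, at chr2:120866933-120868923. It held 83 tags at 20 min and 386 at 30 min, or 2.68 and 11.6 RPM, with no peak at 0 or 10 min. It then held 142 tags at 2 h (4.28 RPM) and 543 at 4 h (18.7 RPM). At 30 min its fold enrichment was 69.01 and its score 3063.8, in a list with a median score of 369.

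The other 4 called at 20 and 30 min were near Nkain2, Anxa5, Erg and Scn8a. The region near Nkain2 held 72 tags at 20 min, 271 at 30 min, 125 at 2 h and 350 at 4 h. The region near Anxa5, which encodes annexin A5, held 87, 246, 140 and 351. The region near Erg, an ETS transcription factor gene, held 41, 132, 86 and 115, and that near Scn8a, a sodium channel gene, 68, 149, 106 and 153. None of the 5 was called at 0 or 10 min, and all lay between 5334 and 122856 bp from the nearest protein-coding TSS. In each, the 30 min and 4 h libraries held more RPM than the 20 min and 2 h libraries. All 5 passed the fold bound of 18 through their 30 min peak alone. Their fold enrichments ran from 19.34 to 69.01 at 30 min and from 6.11 to 14.97 at 20 min. The excess of 30 min over 20 min is therefore in part built into the choice of regions. The regions near Erg and Scn8a carried an E-box within the summit window and the other 3 did not. Whether the 30 min and 4 h libraries share a culture or a preparation was not tested. The sixth region, 454785 bp from the nearest protein-coding TSS, that of Mpdz, had a fold enrichment of 18.18 at 10 min, just above the bound. It held 95 tags at 10 min and 107 at 20 min and was called at 0 min, 2 h and 4 h.

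**Figure D5:**
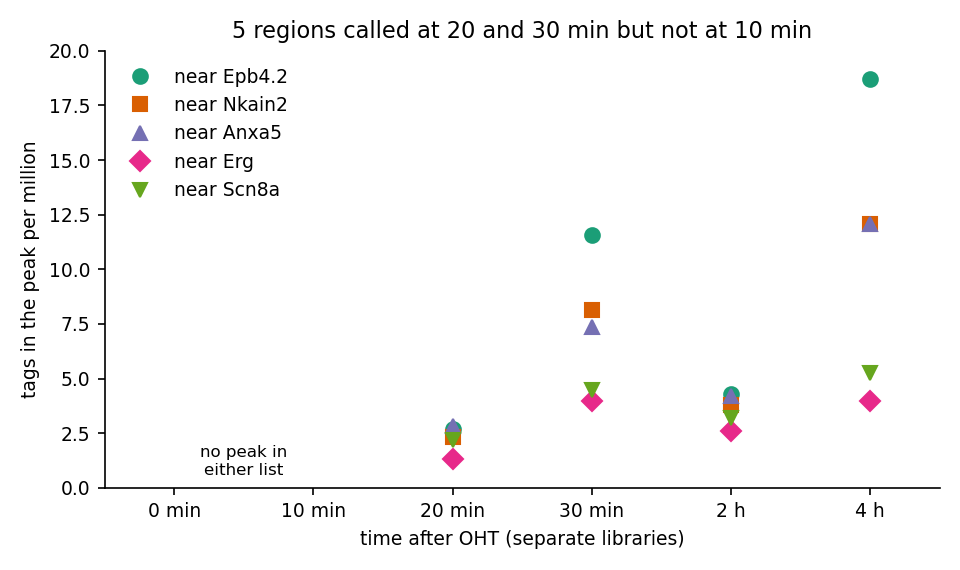
Tags in the peak per 1000000 tags of the library (RPM), at each time of the Myc series, for 5 regions called at 20 and 30 min. Their highest-scoring early peak, that of 30 min in each, had a fold enrichment above 18. The excess of 30 min over 20 min is therefore in part built into the choice. No peak was called at 0 or 10 min. At 30 min and 4 h the values run from 3.96 to 18.7 RPM and at 20 min and 2 h from 1.33 to 4.28.

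The promoters called at all 3 times with the best ranks by fold enrichment were Ears2, Cmc1, Hdgf, Pcbp1, Ncl, Pemt, Timm9 and Adh5. Ears2 encodes a mitochondrial glutamyl-tRNA synthetase and Hdgf a growth factor that binds heparin. At Ears2 the fold enrichment was 129.18 at 10 min, 128.62 at 20 min and 117.68 at 30 min, with 873, 1001 and 904 tags. At Ncl it was 106.65, 113.09 and 104.97, with 1143, 1356 and 1302 tags. Of the 8, all but Pcbp1 carried CACGTG in the summit window. All 8 were called at 0 min, where the tags of Ears2 were 647 and those of Ncl 855.

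Genes of growth pathways showed no gaps between the early times. Such gaps were rare among all genes, with 1.35% called at only 1 time and 1.81% at only 2 times. The lists of glycolysis, CDK inhibitors, B cell markers and hepatocyte markers also had no gene called at only 1 or 2 times. All 34 genes of ribosome biogenesis, all 38 ribosomal protein genes, all 25 genes of nucleotide synthesis and all 25 of the cell cycle list had a promoter peak at 10, 20 and 30 min, against 45.4% of all genes. Every gene of these lists also had an RNAPII promoter peak before activation, against 47.5% of all genes. Npm1, a nucleolar chaperone, had fold enrichments of 77.03, 79.78 and 78.07 in the 3 lists, and Cad, which starts pyrimidine synthesis, 58.07, 65.42 and 57.32. Odc1, the first enzyme of polyamine synthesis, had 41.89, 50.65 and 44.01, and the cell cycle kinase Cdk4 46.90, 61.99 and 52.56. Of 18 glycolysis genes 16 were called at all 3 times, among them Ldha and Hk2, and Aldoc and Slc16a3 at none. Of 7 genes of CDK inhibitors 5 were called at all 3 times, among them Cdkn1a with 231, 283 and 236 tags. Cdkn1c and Cdkn2d were called at none.

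The other lists are read beside the shares over all genes, which were 45.4% at all 3 times, 1.81% at 2 times and 1.35% at 1 time. Of 23 immediate-early genes 22 were called at all 3 times, and Fos, which encodes a subunit of AP-1, was called at 20 and 30 min with 100 and 71 tags. The Fos promoter was also called at 0 min with 58 tags, at 2 h with 110 and at 4 h with 74, so 10 min was the only Myc list without it. Of 16 circadian genes 12 were called at all 3 times. Arntl, which encodes the clock activator BMAL1, was called at 10 and 20 min with 60 and 38 tags and at 2 h with 93. Hlf, a PAR bZIP factor gene, was called at 20 and 30 min with 49 and 40 tags. Npas2 and Rora were called at none.

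In the Myc/Max/Mlx network, 10 of 14 genes were called at all 3 times, 3 at 1 time and Mlxipl at none, against 45.4% of all genes at all 3 times and 1.35% at 1 time. Max, the dimer partner of Myc, had 481, 539 and 511 tags at 10, 20 and 30 min. Mxd1, a repressor that competes for Max, was called at 20 min only with 65 tags, and at 0 min and 2 h with 59 and 97. Mycl1, the L-Myc gene, was called at 20 min only with 55 tags, and at 0 min, 2 h and 4 h with 38, 70 and 51. The 20 min scores were 103.45 for Mxd1 and 148 for Mycl1, above the cutoff of 80.

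Mycn, the N-Myc gene, had an uneven pattern of calls. At 10 min it had 1 peak of 52 tags at chr12:12946120-12947350. At 0 min it had 2 peaks, of 55 and 92 tags, and at 2 h 2 peaks in the same places, of 376 and 755 tags. At 20 min, 30 min and 4 h it had none. The score of the 10 min peak was 157.39. All 5 summits lay in annotated coding exons of Mycn, and no RNAPII peak of 0, 10, 20 or 30 min reached its promoter.

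Of 30 growth factor and cytokine genes, 24 were called at all 3 times, Fgf2 at 20 min only and 5 at none, against 45.4% of all genes at all 3 times. Fgf2, a fibroblast growth factor gene, had 44 tags and a score of 81.87, just above the cutoff, and 73 tags at 2 h. Of 30 genes for ion channels and neurotransmitter receptors 6 were called at all 3 times, below the 45.4% of all genes, 22 at none and Htr2a at 10 and 20 min. Htr2a, a serotonin receptor gene, had 84 tags at 10 min and 187 at 20 min. The 10 min summit lay 970 bp from the TSS and the 20 min summit 2340 bp.

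The labelled cell type was checked with RNAPII at promoters before activation. RNAPII was called at 19 of 24 fibroblast markers, 2 of 22 B cell markers, 3 of 20 T cell and myeloid markers, 4 of 20 neuron markers and 0 of 20 hepatocyte markers, against 47.5% of all genes. Myc was called at all 3 early times at 19 fibroblast markers, among them Col1a1 and Vim, and at 1, 2, 2 and 1 of the markers of the other 4 types, against 45.4% of all genes. Thy1, Postn, Lum and Dcn were called at none. Over all genes, 1.35% had a promoter peak at only 1 early time and 1.81% at only 2. The single-time calls among markers were Col6a2, a fibroblast collagen gene, at 30 min with 46 tags, Gap43 at 10 min with 56 tags, Eno2 at 20 min with 46 tags and Csf1r at 20 min with 39 tags. Lck was called at 10 and 20 min with 52 and 63 tags. Slc17a7, a neuronal glutamate transporter gene, was the strongest of these, with 132 tags at 20 min and 110 at 30 min, and 102 at 0 min and 147 at 2 h. Its summits lay over 1000 bp from the TSS.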

How the data were processed

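Myc ChIP-seq peak lists of 10, 20 and 30 min were analysed, with the Myc lists of 0 min, 2 h and 4 h and the narrow RNAPII lists of 0 to 30 min as comparisons. The submitters' processing notes name mm9, BWA 0.6.2-r126 and MACS2 2.0.9, without saying what each tool was used for. The Myc and narrow RNAPII lists used here came from MACS 1.4.2, run per library against a control with a p cutoff of 1e-08 and 1 tag kept per position, per the file headers. Tags per peak are raw counts, deposited by the authors. The score is −10 times log10 p, per the file headers. Fold enrichment is a ratio to local control background, as deposited. The false discovery rate is a percent of the authors' caller, and its highest value in the 3 lists was 0.05%. Depth was 28131340, 30932510 and 33328832 tags.

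Peaks were merged at 1 bp of overlap with Python 3.11.15, numpy 2.4.6 and pandas 2.3.3, and the merging was tested on simulated intervals. The summit of the highest-scoring peak placed a region in the GENCODE vM1 annotation of NCBIM37, after all peaks had been found to lie within its chromosomes. Motifs were read with pysam 0.24.0 in 200 bp around the summit. Shares carry Wilson 95% intervals (scipy 1.17.1), for counting error only. 16 gene lists held 366 genes, all matched to the annotation through symbols and RefSeq synonyms. Named regions were, per single time, the 6 protein-coding promoter regions and the 4 regions away from promoters with the highest fold enrichment. They were also the 3 best promoters of each pair of times, by the lower fold of the pair, and the 8 best of all 3 times by worst rank. Ncl, Npm1, Cad, Odc1, Cdk4 and up to 4 examples per gene list were added. The comparison, the lists and the alternatives were chosen with earlier results of these data known. Alternatives were other overlap rules, thresholds, list lengths, promoter widths and motif windows. Shares of each single-time class with equal numbers of peaks were added after the data had been seen. Some genes that these rules name are not reported here.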

Additional observations from a re-analysis of the deposited data

How the results depend on the processing

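Of 70 alternative values, 41 stayed within the limit set for them (1.5 times for counts, the 95% interval for shares) and 29 did not. A false discovery rate of at most 1% removed no peak. With equal numbers of peaks, regions at 20 min only numbered 975 and at 30 min only 1061. With summits within 500 bp, 10 min only numbered 1472 and 30 min only 1220. Above the median fold of each list, regions of all 3 times numbered 10148, of only 1 time 2012, of 10 min only 569 and of 20 min only 1041. At a score of at least 160 in the one list, regions of only 1 time numbered 187, with 27 at 10 min, 135 at 20 min and 25 at 30 min. The promoter share of single-time regions was 13.6% at a score of at least 100, 9.29% with a promoter of 500 bp and 17.1% with a wider one, and 15.4% for any base of the region. That of all 3 times was 46.3% with equal numbers, 47.5% at a score of at least 100, 46.2% when peaks up to 1000 bp apart were merged, 40.1% and 48.9% with the narrow and wide promoter, and 49.1% for any base. The CACGTG share in windows of 100 and 400 bp was 5.24% and 10.2% for single-time regions and 11.6% and 18.6% for all 3 times. With equal numbers, the overlap of 10, 20 and 30 min only regions with the 2 h list was 65.7%, 75.4% and 68.2%. Single-time regions had lower promoter and CACGTG shares than regions of all 3 times under every alternative run for them. Genes with a promoter peak at only 1 time numbered 270 to 400. No paired analysis was possible because each group holds 1 library, and no replicate could be left out. At a score of 80 to 90, the weak end of the lists, the median peak held 48 tags at 10 min and 50.5 at 20 and 30 min.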

Other observations

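Single-time regions were spread over all chromosomes. Their share of the merged regions ran from 10.7% on chromosome 11 to 16.5% on the X chromosome. Of the 329 single-time regions at a protein-coding promoter, 75 (22.8%, 18.6 to 27.6) lay at a gene that another peak marked as bound at all 3 times. The summit windows of single-time regions had a median GC content of 48.5%, against 55.5% for regions of all 3 times, while the flanks had 45.0% and 46.0%.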
